A study of Danio rerio with 9 samples.

Results

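The genes tomm40, tomm40l, tomm22, hspa9, hspd1 and hspe1, 6 of the 8793 genes with a probe set on the array, belong to the protein import and folding machinery of mitochondria. They were found by current symbol among the probe sets whose platform annotation gave exactly 1 gene. This gave 7 probe sets of the 15617 on the array, 1 per gene and 2 for hspa9, and all 7 were kept by the filter on dim signals. The 6 genes were put together with the differences between 50 µg/L pentachlorophenol and water already known, tomm40l and hspe1 having been picked out for lower signals at that dose. Values at 50 µg/L are therefore given for them as a description with no test.

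The samples were total RNA of whole zebrafish embryos, Tuebingen strain, wild type, at about 8 h after fertilisation, the gastrula stage. Eggs had been collected over a short window and exposed in deionized water as the control, in 20 µg/L pentachlorophenol or in 50 µg/L pentachlorophenol. Pentachlorophenol is a chlorinated phenol that carries protons across the inner mitochondrial membrane and so uncouples respiration from ATP synthesis. Each group held 3 Affymetrix arrays that the labels call biological replicates. The number of embryos in a sample and the clutches they came from are not given, so p-values cover no more than the spread among these 9 samples, and in whole embryos fewer cells of a type and less RNA per cell cannot be told apart.

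Nearly all mitochondrial proteins are made in the cytosol and imported. Precursors cross the outer membrane through the TOM complex, whose pore is Tom40 and whose central receptor is Tom22, and matrix proteins are then drawn across the inner membrane, which needs the membrane potential and the ATP-driven Hsp70 of the matrix, encoded by hspa9. In the matrix many of them fold inside a chaperonin barrel, encoded by hspd1, which is closed by a lid, encoded by hspe1.

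Signals were on the linear scale of the deposited table, and differences below are in log2(signal + 1). Each of the 7 probe sets was above the tag control level (on each array the 95th percentile of 17 control probe sets for artificial tag sequences) on all 9 arrays, by 1.68 times at the least for the dimmer hspa9 probe set and 1.8 times for tomm40l. The median signal per array was 111.4 to 128.6 in water, 97.6 to 130.3 at 20 µg/L and 141.3 to 150.9 at 50 µg/L. Control replicate 3 stood apart, with a median Spearman correlation of 0.869 over probe sets with the other arrays, where the rest had 0.912 to 0.929, and the highest tag control level (113.8, where the rest had 50.6 to 82.6). The arrays with number 3 were deposited with 6 or 7 decimals and the others with 1, and this export format was treated as a possible batch that held every group. Gastrula genes were above the tag control level on all arrays for 18 of 21 measured, against 1 of 14 genes of later differentiation (myf5). The summed signal of 15 maternal oocyte transcripts was 17311 to 34697 at 50 µg/L, against 4976 to 8618 in water, and 8 of the 13 that were kept rose at that dose (limma adjusted p below 0.05), so these moved with every difference at 50 µg/L described here, and their part in it was not tested. Over all probe sets kept, 3.45% rose and 1.03% fell at 50 µg/L. Of the 21 gastrula genes kept, 4 rose and 1 fell at 50 µg/L, with summed signals of 85569 to 101864, against 65257 to 70394 in water. Of the genes of the enveloping layer, the outer cell sheet, 0 of 9 passed there, with sums of 95616 to 104519, against 94023 to 118034 in water, and of those of the yolk syncytial layer 1 of 8 rose (5346 to 7189, against 3727 to 5323 in water). Of the later differentiation genes 1 of the 2 kept fell, with sums over all 14 of 714 to 902 at 50 µg/L, against 990 to 1504 in water. The part of these lists in the members' values was not tested.

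The pore gene tomm40 (NCBI gene 322645) had signals of 1915, 1960 and 1357 on the 3 water arrays, 2544, 1852 and 1262 at 20 µg/L, and 489, 725 and 727 at 50 µg/L. The arrays at 50 µg/L were all lower than any other array, while those at 20 µg/L spread to both sides of the water arrays. Mean signals were 1744 ± 336 in water, 1886 ± 642 at 20 µg/L and 647 ± 137 at 50 µg/L (SD, n = 3 each). The difference was -1.43 (SE 0.31) at 50 µg/L against water and -1.51 (SE 0.31) at 50 against 20 µg/L, so the 50 µg/L level was 0.37 times that of water. Among the arrays numbered 1 and 2 the difference at 50 µg/L against water was -1.70, and on the arrays numbered 3 it was -0.90.

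The related gene tomm40l (NCBI gene 405895) encodes a second Tom40 protein, known from mammals as a minor form of the pore. Its signals were 492, 552 and 563 in water, 338, 312 and 193 at 20 µg/L, and 142, 158 and 137 at 50 µg/L. No group overlapped another, and the order ran down with dose, from the water arrays through 20 µg/L to 50 µg/L. The gene was picked out for lower signals at 50 µg/L, and the share of all probe sets with this order was not counted, so nothing is read from it. Mean signals were 536 ± 38 in water, 281 ± 77 at 20 µg/L and 145 ± 11 at 50 µg/L (SD, n = 3 each). The difference from water was -0.97 (SE 0.29) at 20 µg/L and -1.88 (SE 0.29) at 50 µg/L, which is 0.511 and 0.272 times the water level. It was -1.8 at 50 µg/L among the arrays numbered 1 and 2 and -2.03 on those numbered 3. Both Tom40 genes were therefore lowest at 50 µg/L, but at 20 µg/L tomm40 had a difference of 0.07 from water where tomm40l had -0.97. That contrast between the genes was not tested.

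The receptor gene tomm22 (NCBI gene 321232) had signals of 4516, 4528 and 2850 in water, 3581, 3611 and 2613 at 20 µg/L, and 2174, 2014 and 2803 at 50 µg/L. The 50 µg/L arrays were below the water arrays by a narrow margin, 2803 against 2850 for the closest pair, and overlapped those at 20 µg/L. The difference from water was -0.75 (SE 0.26) at 50 µg/L and -0.26 (SE 0.26) at 20 µg/L. Most of the 50 µg/L difference came from the arrays numbered 1 and 2, with -1.11 among them and -0.02 on those numbered 3. The value on those numbered 3 is 1 array against control replicate 3, so the possible batch and that array cannot be told apart. Without control replicate 3 the 50 µg/L difference was -0.97.

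**Figure D1:**
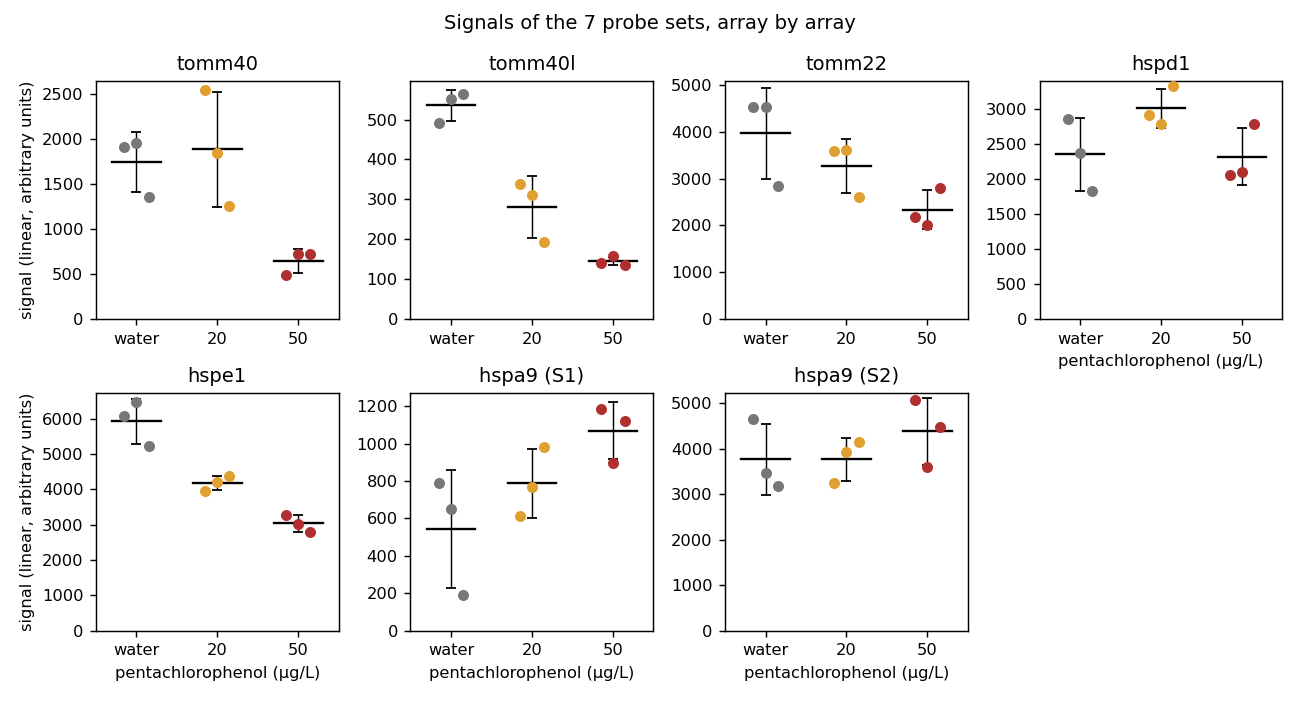
Signal of each of the 7 probe sets on a linear scale (vertical axis) in water, 20 and 50 µg/L pentachlorophenol (horizontal axis). Each point is 1 array, black lines are means and bars are SD (n = 3). The tomm40l and hspe1 groups do not overlap, from which nothing is read, and hspa9 S1 has 1 water array at 191.

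The lid gene of the chaperonin, hspe1 (NCBI gene 58041), followed the same descending order as tomm40l. It had signals of 6068, 6458 and 5231 in water, 3954, 4204 and 4366 at 20 µg/L, and 3287, 3032 and 2788 at 50 µg/L. No group overlapped another, and as for tomm40l nothing is read from the order. Means were 5919 ± 626 in water, 4175 ± 207 at 20 µg/L and 3036 ± 249 at 50 µg/L (SD, n = 3 each). The difference from water was -0.50 (SE 0.20) at 20 µg/L and -0.96 (SE 0.20) at 50 µg/L, or 0.707 and 0.514 times the water level, and at 50 µg/L it was -0.99 among the arrays numbered 1 and 2 and -0.91 on those numbered 3.

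The partner of hspe1 is hspd1 (NCBI gene 282676), which encodes the barrel. The gene lies directly beside hspe1 on chromosome 9 in the RefSeq table of the GRCz12tu assembly. Signals were 2866, 2373 and 1830 in water, 2925, 2796 and 3329 at 20 µg/L, and 2066, 2105 and 2793 at 50 µg/L. The groups overlapped, apart from the 20 µg/L arrays, which were all above those at 50 µg/L (2796 against 2793 for the closest pair). The difference from water was -0.01 (SE 0.25) at 50 µg/L and 0.38 (SE 0.25) at 20 µg/L. At 50 µg/L its sign differed between the arrays numbered 1 and 2 (-0.32) and those numbered 3 (0.61). The value on those numbered 3 is 1 array against control replicate 3, so the possible batch and that array cannot be told apart. At 20 µg/L the difference was 0.13 among the arrays numbered 1 and 2, 0.86 on those numbered 3, and 0.21 without control replicate 3. With arrays scaled by quantile normalization the 50 µg/L value was 0.06, and with each array centred on its median -0.26. Over the 9 arrays the log2 signals of hspe1 had a Pearson r of 0.91 with those of tomm40l and 0.04 with those of hspd1. With tomm22, tomm40 and the brighter hspa9 probe set r was 0.77, 0.72 and -0.29. These values describe points that share arrays, scaling and groups. Because tomm40l and hspe1 were both picked out for lower signals at 50 µg/L, nothing is read from their r. For the same reason nothing is read from the contrast between hspe1 and hspd1, which was not tested.

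The matrix Hsp70 gene hspa9 (NCBI gene 373085) was read by 2 probe sets. The brighter one, named S2 in the plots, had signals of 4652, 3474 and 3177 in water, 3245, 3923 and 4143 at 20 µg/L, and 5075, 3606 and 4489 at 50 µg/L. All 3 groups overlapped, with a difference from water of 0.23 (SE 0.24) at 50 µg/L and 0.01 (SE 0.24) at 20 µg/L. The 50 µg/L value was -0.03 with each array centred on its median and 0.39 under quantile normalization.

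The dimmer hspa9 probe set (S1) had signals of 789, 651 and 191 in water, 612, 767 and 983 at 20 µg/L, and 1187, 896 and 1121 at 50 µg/L. The 50 µg/L arrays were all higher than the water arrays, by a difference of 1.2 (SE 0.45). The low water array was control replicate 3, and without it the difference was 0.56 at 50 µg/L and 0.11 at 20 µg/L, against 0.74 with all arrays. At 50 µg/L it was 0.52 among the arrays numbered 1 and 2 and 2.55 on those numbered 3, which include that water array. At 20 µg/L these values were -0.06 and 2.36. The brighter probe set had 0.09 and 0.5 at 50 µg/L. With the deposited scaling both probe sets had differences above 0 at 50 µg/L, but that of the brighter one was 0.23 (SE 0.24) with overlapping arrays. Over the 9 arrays their log2 signals had a Pearson r of 0.72.

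**Figure D2:**
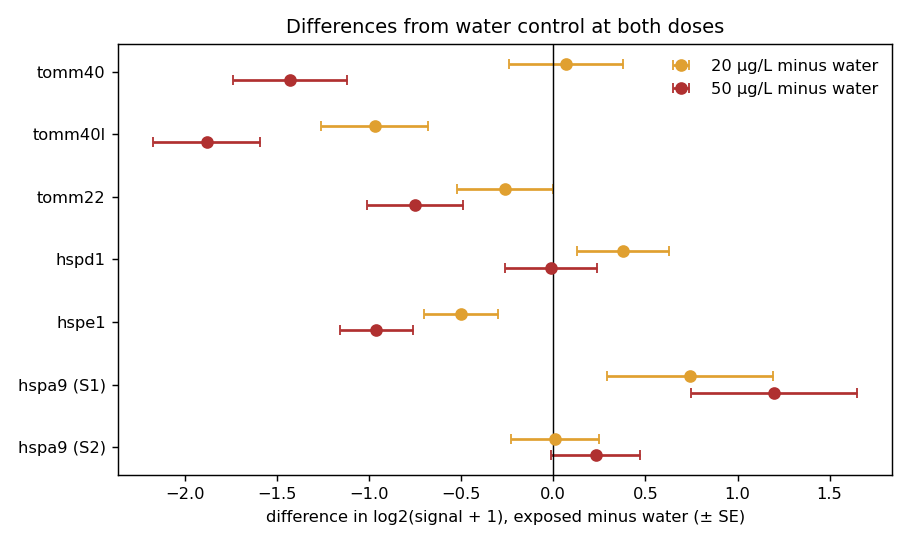
Difference from water in log2(signal + 1) for each probe set (horizontal axis), at 20 µg/L (yellow) and 50 µg/L (red), with bars of 1 SE from the fit over all 9 arrays. At 50 µg/L tomm40l (-1.88), tomm40 (-1.43), hspe1 (-0.96) and tomm22 (-0.75) were below water. The hspa9 probe sets had 1.2 (S1) and 0.23 (S2, whose arrays overlapped those of water), S2 being at -0.03 with centred array medians.

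Between 50 µg/L and water, 4 of the 7 probe sets had all exposed arrays below all water arrays (tomm40, tomm40l, tomm22 and hspe1), where 10.4% of the 9301 probe sets kept did, and 1 had all exposed arrays above (hspa9 S1), where 17.8% did. The genes had been chosen on this comparison, so nothing is read from these counts. Between 50 and 20 µg/L the same kind of count was 4 lower, where 9.75% of all were, and none higher, where 18.2% of all were. These 4 were tomm40, tomm40l, hspe1 and hspd1. The same 50 µg/L arrays enter this count, so nothing is read from it either.

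The comparison of 20 µg/L with water was tested, but the genes had been chosen with earlier results of these data known. It shares the water arrays with the comparison at the other dose. The test was therefore not independent of the choice. None of the 7 probe sets passed at 20 µg/L (limma, Benjamini-Hochberg over 9301 probe sets), and the share called over all of them was 0%. At an unadjusted p below 0.05 there were 2 of 7, against 7.86% of all probe sets. These were tomm40l (-0.97, 95% interval -1.59 to -0.35, limma adjusted p = 0.61) and hspe1 (-0.50, 95% interval -0.94 to -0.06, limma adjusted p = 0.614). Both had all 3 exposed arrays below all 3 water arrays, as 6.96% of all probe sets did, and none of the 7 had all exposed arrays above, as 5.71% did. Tomm40l and hspe1 had been picked out at the other dose against the same water arrays. Nothing is therefore read from these counts, or from the p-values and intervals of tomm40l and hspe1. The difference was -0.68 for tomm40l among the arrays numbered 1 and 2 and -1.54 on those numbered 3, and for hspe1 -0.62 and -0.26. The other 5 probe sets had limma adjusted p from 0.671 to 0.99, with 95% intervals of -0.59 to 0.74 for tomm40, -0.83 to 0.31 for tomm22, -0.16 to 0.91 for hspd1, and -0.23 to 1.71 and -0.50 to 0.53 for hspa9.

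The rest of the import machinery was read at 50 µg/L from a list of 46 genes, of which 26 had a probe set and 24 were kept. Of the 24, timm8b fell, samm50 rose and 22 did not pass, against 4.48% of all probe sets called (1.03% lower and 3.45% higher). The list's median difference was -0.47, with 14 genes below 0 and 10 above, while the median over all 6115 genes was 0.08. At an unadjusted limma p below 0.05 there were 6 of the 24, against 24.5% of all probe sets. At 20 µg/L none of the 24 passed, 2 had an unadjusted limma p below 0.05 (timm8b and timm9; 7.86% of all probe sets did), and the median was -0.20, against -0.05 over all genes.

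Timm8b is a small chaperone of the space between the membranes, which escorts hydrophobic precursors, in yeast as a partner of Tim13. Its signals were 1706, 2388 and 2449 in water, 1220, 1369 and 1086 at 20 µg/L, and 927, 1251 and 876 at 50 µg/L. The arrays of both doses were below all water arrays, as for 10.4% of all probe sets at 50 µg/L and 6.96% at 20 µg/L. It fell at 50 µg/L by 1.10 on the log2 scale (SE 0.26, limma adjusted p = 0.0368), and at 20 µg/L the difference was -0.82 (limma adjusted p = 0.61). The call was lost without any single 50 µg/L array, 20 µg/L replicate 1 or 2, or control replicate 3 (limma adjusted p from 0.0575 to 0.174), with no intensity trend in the fit (0.0525), and among the 6 arrays with 1 decimal (-0.91, adjusted p = 0.0985).

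The gene samm50, for the protein that inserts barrel-shaped proteins such as Tom40 into the outer membrane, went the other way. Its signals were 60, 95 and 47 in water, 63, 49 and 64 at 20 µg/L, and 232, 180 and 191 at 50 µg/L. The 50 µg/L arrays were above all others. Of all probe sets, 17.8% had them above all water arrays and 18.2% above all 20 µg/L arrays. For samm50, 1 of the 3 water arrays and 2 of the 3 at 20 µg/L were under the tag control level. The gene rose at 50 µg/L by 1.61 (SE 0.38, limma adjusted p = 0.0375), or by 1.2 where signals under the tag control level were set to it (limma adjusted p = 0.0396). The filter on dim signals averaged all 9 arrays, and log2 means of samm50 were 6.04 in water, 5.89 at 20 µg/L and 7.65 at 50 µg/L. Whether it would have been kept without the 50 µg/L arrays was not tested. With the lowest 60% left out it was not kept. The call was lost without any single 50 µg/L array, 20 µg/L replicate 1 or 2, or control replicate 1 or 3 (limma adjusted p from 0.0535 to 0.182), with no filter (0.0767), with replicate number as a block in the fit (0.0616), among the 6 arrays with 1 decimal (1.42, adjusted p = 0.0972) and under both other scalings (adjusted p = 0.0695 with quantile normalization and 0.0673 with centred medians).

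Of the other TOM subunits 4 were measured and kept, and none passed at 50 µg/L. They were the small subunits tomm5 (-0.80, limma adjusted p = 0.13) and tomm7 (-0.67, limma adjusted p = 0.117) and the receptor genes tomm20a (-0.54, limma adjusted p = 0.254) and tomm20b (0.12, limma adjusted p = 0.853). The dimmer second probe set of tomm20b had 0.40 (limma adjusted p = 0.542). Without control replicate 3 tomm20a had -0.80 and tomm20b, on its brighter probe set, had -0.23. Tomm20a passed with array weights (-0.73, limma adjusted p = 0.032), where 1724 of all 9301 probe sets passed. The bright subunit tomm5 had signals of 2372, 4904 and 3394 in water, 2638, 2926 and 1840 at 20 µg/L, and 1659, 2362 and 1925 at 50 µg/L. Its 50 µg/L arrays were below the water arrays, as for 10.4% of all probe sets, by 2362 against 2372 for the closest pair. The tomm5 difference was -0.53 without control replicate 2.

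Genes of the inner membrane channel had differences from -0.78 to 0.30 at 50 µg/L, 3 of 4 below 0, with timm23a, for the channel protein, at -0.57 (limma adjusted p = 0.262). It had -0.35 without control replicate 2 and -0.90 without control replicate 3. With array weights it passed (-0.76, limma adjusted p = 0.028), as did 1724 of all 9301 probe sets. The 5 import motor genes beside hspa9 ran from -0.65 to 0.82. The nucleotide exchange factors of the motor, grpel1 (0.48, limma adjusted p = 0.452) and grpel2 (0.82, limma adjusted p = 0.272), had its 2 values above 0. Both moved with single arrays, grpel2 to 0.22 without control replicate 3, and grpel1 to 0.27 without that array, 0.26 without 50 µg/L replicate 1 and 0.86 without 50 µg/L replicate 3. The second probe set of grpel2 had -0.21 (limma adjusted p = 0.729). The small chaperones and the carrier translocase ran from -1.1 to 0.65, 3 of 4 below 0. Among them timm13, the brightest gene of the list, had -0.42 (limma adjusted p = 0.343, and -0.27 without 50 µg/L replicate 3), and its groups overlapped. The 4 genes of outer membrane insertion, samm50 among them, ran from -0.69 to 1.61, with 3 above 0. The lowest was mtx2, whose second probe set had 0.30 (limma adjusted p = 0.658).

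A second list held 31 other chaperones and proteases of mitochondria, of which 19 had a probe set and 16 were kept. None of the 16 passed at 50 µg/L or at 20 µg/L with limma, and at an unadjusted limma p below 0.05 there were 3 at 50 µg/L, against 24.5% of all probe sets, and 1 at 20 µg/L, against 7.86%. Medians were -0.12 at 50 µg/L and -0.23 at 20 µg/L. The prohibitin gene phb had 1929, 1886 and 2001 at 50 µg/L, against 2478, 2973 and 2678 in water, a difference of -0.48 (limma adjusted p = 0.228). The ATP synthase assembly factor gene atpaf1 had -0.66 (limma adjusted p = 0.113) and the matrix Hsp90 gene trap1 had -0.36 (limma adjusted p = 0.429, and -0.24 to -0.57 with 1 array left out). Other probe sets of atpaf1 had 0.21 and -0.45. Of the proteases that are commonly read beside hspd1 and hspe1 in the mitochondrial stress response, the protease gene clpp had 0.84 (limma adjusted p = 0.0893) and lonp1 had -0.86 (limma adjusted p = 0.118), in opposite directions. The exposed arrays of clpp were all above the water arrays, as for 17.8% of all probe sets. Those of lonp1 were all below, as for 10.4%, by 252 against 255 for the closest pair. Both genes passed with array weights (limma adjusted p = 0.011 for clpp and 0.0176 for lonp1), where 1724 of all 9301 probe sets passed. Clpp and lonp1 were named after their values were seen. Also on the list were clpxa (0.37, and 1.24, 0.11 and -0.47 on its other probe sets), afg3l2 (0.17) and spg7 (-0.13). Of the 16 genes, 9 were below 0 and 7 above at 50 µg/L. Among 18 chaperones of the cytosol and endoplasmic reticulum, 1 rose (hsp90b1) and 1 fell (dnaja2a), against 3.45% and 1.03% of all probe sets. The median of -0.11 pools both compartments, with 10 genes below 0 and 8 above. Those of the endoplasmic reticulum, hsp90b1 and hspa5, had 1.86 and 1.24 (limma adjusted p = 0.0327 and 0.0546). For 5 of the 18 all exposed arrays were below water and for 2 all were above, against 10.4% and 17.8% of all probe sets.

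**Figure D3:**
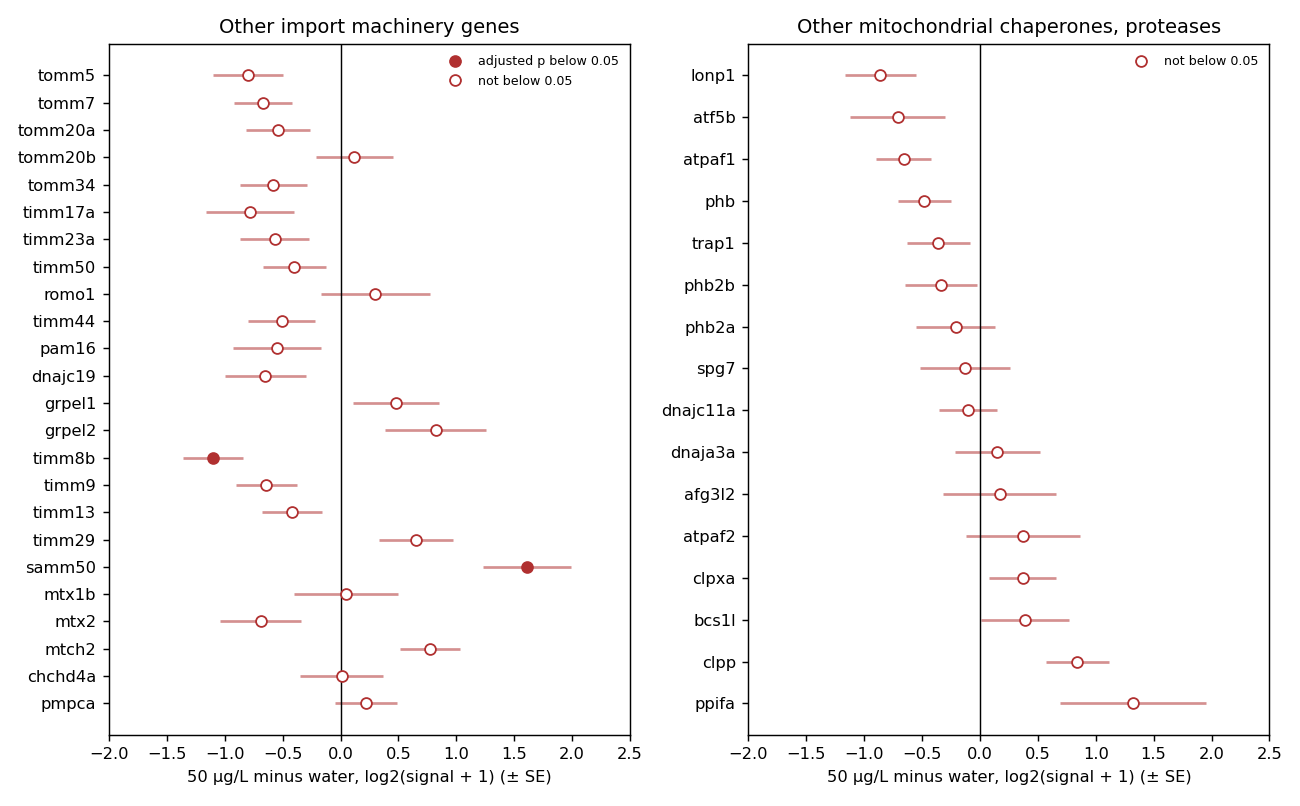
Difference between 50 µg/L and water in log2(signal + 1), with bars of 1 SE, for 24 other import genes in order of role (left) and 16 other mitochondrial chaperone and protease genes in order of value (right). Filled points passed the limma test; these are timm8b (-1.10) and samm50 (1.61).

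Over all 9301 probe sets 321 rose and 96 fell at 50 µg/L, 417 in all. No probe set was called without 50 µg/L replicate 1, and 81 and 160 were without 50 µg/L replicates 2 and 3. There were 207 and 200 calls without 20 µg/L replicates 1 and 2, and 168 and 721 without control replicates 1 and 2. The share of calls that were falls was 23% with the deposited scaling, 37% with quantile normalization and 50.3% with array medians centred, and 35.2% with array weights. The median difference of all probe sets was 0.1 with the deposited scaling, -0.04 with quantile normalization and -0.15 with array medians centred.

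Genes whose log2 signals ran most like each member's over the 9 arrays were looked up among 6109 other genes, as the 3 highest Pearson r values. For tomm40l they were slc14a2, a urea transporter gene (r = 0.994), cox7a2a, a cytochrome c oxidase subunit gene (r = 0.98), and atp5l, an ATP synthase subunit gene (r = 0.965). For hspe1 they were mbd3b (r = 0.948), ppil3 (r = 0.948) and the ATP synthase subunit gene atp5pd (r = 0.935). Tomm22 ran closest to chchd2 (r = 0.956), the proteasome subunit gene psmb3 (r = 0.955) and the isocitrate dehydrogenase subunit gene idh3a (r = 0.954).

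The genes nearest to tomm40 were cth (r = 0.973), dut (r = 0.964) and bckdk (r = 0.962), with differences of -0.19, 0.09 and 0.15 at 20 µg/L and -1.25, -0.61 and -0.65 at 50 µg/L, close to the water level at the lower dose, as tomm40 was. Those nearest to tomm40l had -1.19, -0.47 and -0.72 at 20 µg/L and -2.27, -0.89 and -1.35 at 50 µg/L, graded as tomm40l was. For hspd1 the nearest were gpd1b (r = 0.904), metrn (r = 0.901) and ptp4a1 (r = 0.895), and for the brighter hspa9 probe set gnptab (r = 0.951), gcshb (r = 0.929) and pfkfb1 (r = 0.899). These values describe likeness over the same 9 arrays, which share scaling and groups. The genes were picked for that likeness, so the match of their differences to the member's was fixed by the choice, and nothing is read from it.

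**Figure D4:**
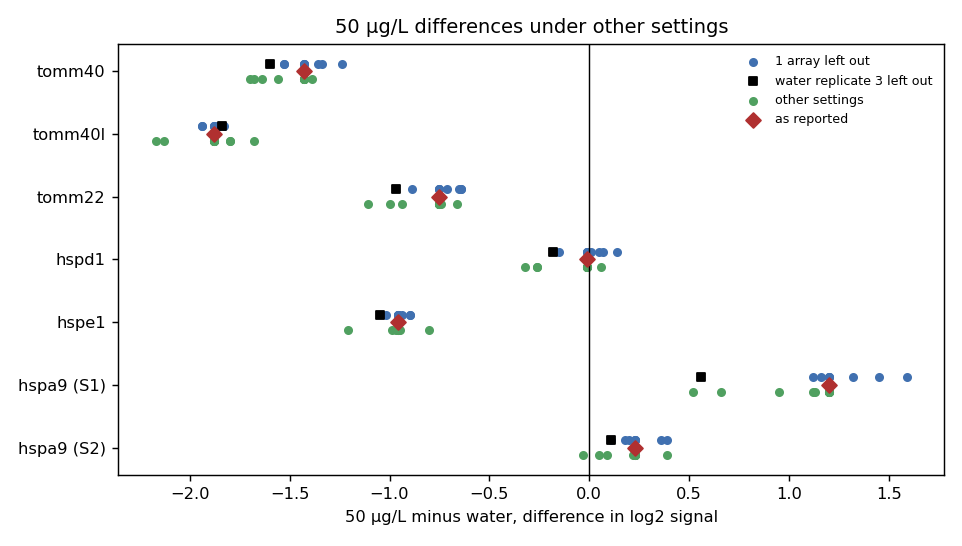
Difference between 50 µg/L and water for each member probe set (horizontal axis) as reported (red), with 1 array left out (blue), with control replicate 3 left out (black) and under the other settings (green). The points of tomm40, tomm40l, tomm22 and hspe1 stay below 0, those of hspd1 fall on both sides, and hspa9 S1 drops to 0.56 without control replicate 3.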

How the data were processed

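Total RNA of 9 whole-embryo samples was hybridised to Affymetrix arrays. The deposited table gives an intensity on a linear scale for each probe set. It was made by the authors with GCOS and MAS5, per the submitters' processing notes, which name no version here. Every array had a mean of 500.1 or 500.2 after trimming 2% at each end, so the authors had scaled each to 1 trimmed mean. No columns of other samples were in the table (0).

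Signals were taken by this re-analysis from the deposited intensity as log2(value + 1). The size of a change in a dim probe set depends on how low signals are handled. For samm50 at 50 µg/L it was 1.61 this way and 1.2 with signals under the tag control level set to it. The 115 control probe sets and the 40% of the others with the lowest mean log2 signal were left out, which kept 9301. All 9 arrays were fitted with limma 3.58.1 in R 4.3.3 (lmFit, eBayes with intensity trend), two-sided, with Benjamini-Hochberg adjustment over all 9301 and a threshold of 0.05. The procedure was tested on simulated data with independent noise for each probe set. That simulation held no batch and no deviating array, so it says nothing on those limits. The number of arrays limits the precision.

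Probe sets of 1 gene were used; symbols came from the platform annotation, updated through gene identifiers. The probe set with the highest mean log2 signal stood for a gene. Members and gene lists were chosen with earlier results of these data known. The genes named by rule were all members, the listed mitochondrial genes that passed, the 3 brightest of each mitochondrial list, and the 3 genes most like each member. Further TOM subunits, the other genes given by role and clpp and lonp1 were added after their values were seen, as were their alternative settings. Also named from their values were timm9, myf5, hsp90b1, hspa5, dnaja2a, mtx2, clpxa, afg3l2 and spg7, without alternative settings. Same-numbered arrays correlated from -0.16 to 0.23 in their deviations from group means, so the numbers were not taken as pairs.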

Additional observations from a re-analysis of the deposited data

How the results depend on the processing

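The results were recomputed with an offset of 32, quantile normalization, centred array medians, no filter, a filter of 60%, signals under the tag control level set to it, the replicate number as a block, the export format as a block, array weights, no intensity trend, the 6 arrays with 1 decimal, and without each array in turn. The 0 member probe sets called at 20 µg/L held in all 20. In 17 of these no probe set of any gene was called at that dose, so nothing is read from it. Of the other import genes at 50 µg/L, 2 were called as reported and 1 with quantile normalization, with centred medians, with no filter, with the lowest 60% left out, with the replicate number as a block (replicate block) and with no intensity trend. There were 6 of the 24 with array weights (1724 of all 9301 probe sets were called there), 0 among the 6 arrays with 1 decimal, and 0 to 2 with 1 array left out. Of the other mitochondrial chaperones and proteases 2 were called with array weights, as against 0. Over all probe sets the 417 calls at 50 µg/L became 277 with no filter, 240 with the replicate block, 1724 with array weights and 0 to 721 with 1 array left out. The 0 calls at 20 µg/L became 22 among the 6 arrays and 0 to 1 with 1 array left out. Causes were not tested. At 50 µg/L the differences from water with 1 array left out ran from -1.60 to -1.24 for tomm40, -1.94 to -1.83 for tomm40l, -0.97 to -0.64 for tomm22, -1.05 to -0.90 for hspe1, -0.18 to 0.14 for hspd1, 0.56 to 1.59 for the dimmer hspa9 probe set and 0.11 to 0.39 for the brighter one. At 20 µg/L the ranges with 1 array left out were -1.12 to -0.72 for tomm40l, -0.59 to -0.43 for hspe1 and 0.21 to 0.53 for hspd1. Tag control levels up to 113.8 limit what dim genes such as samm50 can show.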
